A study of Komagataella phaffii with 6 samples.

Results

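TEF1, GCW14 and ACT1 are genes whose promoters or transcripts serve as steady standards in work with Komagataella phaffii, the methylotrophic yeast formerly called Pichia pastoris. They were taken by locus tag, as PAS_FragB_0052 (TEF1), PAS_chr1-4_0586 (GCW14) and PAS_chr3_1169 (ACT1), and make up 3 of the 5040 genes in the table. Neither the table nor the RefSeq annotation gives a symbol for any locus tag, so the names come with the choice of genes and were not checked against sequence. All 3 genes passed the filter on low counts, as did 3330 genes in all. The 2 groups were wild-type strain X-33 kept for 18 h on methanol without a nitrogen source, and the same strain kept for 18 h on methanol with ammonium sulfate, with 3 libraries in each group. Cells of both groups had first grown for 40 h on glycerol, and both had methanol in the medium at sampling. The labels do not say whether the replicates were separate cultures, so the p-values measure the spread between these samples, which may be technical.

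TEF1 encodes translation elongation factor eEF1A, which brings aminoacyl-tRNA to the ribosome and is among the most abundant proteins of a yeast cell. GCW14 encodes a small cell wall protein attached through a glycosylphosphatidylinositol anchor, and its promoter is used as a strong constitutive one in K. phaffii. ACT1 encodes actin, the subunit of the filaments that guide secretion, endocytosis and cell polarity, and its transcript is a common standard for quantitative PCR. A standard of either kind is of use only if its level holds between the conditions compared, and nitrogen supply is known in yeasts to act on growth and on the making of the translation machinery. The comparison therefore asks how steady each transcript was when nitrogen was withheld, and whether the ratios between them held.

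Libraries were made from the 3' ends of polyadenylated transcripts and were shallow, with 127303 to 395803 counts without nitrogen and 302395 to 435003 with nitrogen. Replicate 3 without nitrogen was the shallowest, with a median of 13 counts per tested gene against 29 to 45 in the other libraries. CPM values, the usual scaled count unit, are given relative to the TMM-scaled number of counts on tested genes. Counts are relative, so a change in the total amount of transcript per cell would not be seen. All coding lengths in the table are multiples of 3, so reads that do not touch the coding sequence were not counted.

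The genes differ widely in structure. TEF1 is a single coding exon of 1380 bp on the plus strand of chromosome 1, at 2752575 to 2753954 (ASM2700v1), for a protein of 459 residues. GCW14 is a single coding exon of 408 bp on the minus strand of the same chromosome, at 2498656 to 2499063, for a protein of 135 residues. ACT1 lies on the plus strand of chromosome 3, at 467400 to 469127, for a protein of 376 residues. Its coding sequence has 3 exons, with first exons of 10 and 14 bp ahead of introns of 339 and 258 bp, and a last exon of 1107 bp that holds nearly all of the coding sequence. In each case the next gene beyond the coding end runs toward it on the other strand, with coding regions 204 bp apart for TEF1, 205 bp for GCW14 and 37 bp for ACT1.

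TEF1 differed little between the groups. Its level was 14733, 14162 and 12107 CPM in replicates 1, 2 and 3 without nitrogen, and 13591, 14176 and 14008 CPM in replicates 1, 2 and 3 with nitrogen. The groups overlapped, and the one low value was that of the shallow replicate 3 without nitrogen. The means were 13667 ± 1381 CPM without nitrogen and 13925 ± 301 CPM with nitrogen (SD, n = 3 each). The log2 fold change, without nitrogen over with nitrogen, was -0.03 ± 0.12 (SE), with an adjusted p = 0.950 in edgeR's quasi-likelihood test (Benjamini-Hochberg over all tested genes) and a 95% interval from -0.26 to 0.21. That interval leaves room for a fold between 0.832 and 1.16. A change within those bounds is not excluded, and the bounds are not a limit of detection. By total count over the 6 libraries TEF1 ranked 3 among all genes, and it took 1.34% ± 0.122 of all counts without nitrogen and 1.36% ± 0.0149 with nitrogen (SD, n = 3 each).

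GCW14 was higher in every library without nitrogen than in any library with nitrogen, but did not pass the test over all genes. Its level was 4771, 4568 and 4638 CPM in replicates 1, 2 and 3 without nitrogen, and 3704, 3958 and 3276 CPM in replicates 1, 2 and 3 with nitrogen. The gap between the groups lay between replicate 2 of each, and the spread was wider among the libraries with nitrogen. Means were 4659 ± 103 CPM without nitrogen and 3646 ± 345 CPM with nitrogen (SD, n = 3 each). In log2 the fold change came to 0.35 ± 0.12 (SE), at an edgeR adjusted p = 0.0531 and an unadjusted p = 0.00345, with a 95% interval from 0.12 to 0.59, which is a fold of 1.28 with bounds at 1.08 and 1.51. GCW14 passed in 5 of 15 alternative analyses, DESeq2 (adjusted p = 0.0260) and limma-voom (adjusted p = 0.0143) among them, and its log2 fold change stayed above 0 in all 15, from 0.28 without replicate 3 with nitrogen to 0.40 without replicate 2 with nitrogen. As a share of all counts it took 0.456% ± 0.00294 without nitrogen and 0.356% ± 0.0364 with nitrogen (SD, n = 3 each; exact permutation p = 0.1, two-sided, the smallest that 3 samples against 3 allow).

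ACT1 had by far the fewest counts of the 3 and was the least even. It had 116, 143 and 25 counts in replicates 1, 2 and 3 without nitrogen, and 119, 86 and 122 counts in replicates 1, 2 and 3 with nitrogen. These counts correspond to 404, 361 and 199 CPM without nitrogen and to 271, 296 and 396 CPM with nitrogen. The groups overlapped, with both the highest and the lowest library among those without nitrogen. The mean was 321 ± 108 CPM without nitrogen and 321 ± 66.3 CPM with nitrogen (SD, n = 3 each). Its log2 fold change, 0.09 ± 0.17 (SE), had an edgeR adjusted p = 0.877 and a 95% interval from -0.25 to 0.43, or a fold between 0.841 and 1.35. That SE hardly reflects the scatter of ACT1 itself, so the interval may be too narrow. With DESeq2 the log2 fold change of ACT1 was 0.06 ± 0.24 (SE). The near equality of the means rests on replicate 3 without nitrogen: without it, the log2 fold change was 0.26 (edgeR adjusted p = 0.537), and without replicate 3 with nitrogen it was likewise 0.26 (edgeR adjusted p = 0.617). The sign turned without replicate 1 of either group, to -0.07 without replicate 1 without nitrogen and to -0.03 without replicate 1 with nitrogen. In an exact permutation test on the shares of counts, p was 1 for ACT1 and 1 for TEF1.

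**Figure D1:**
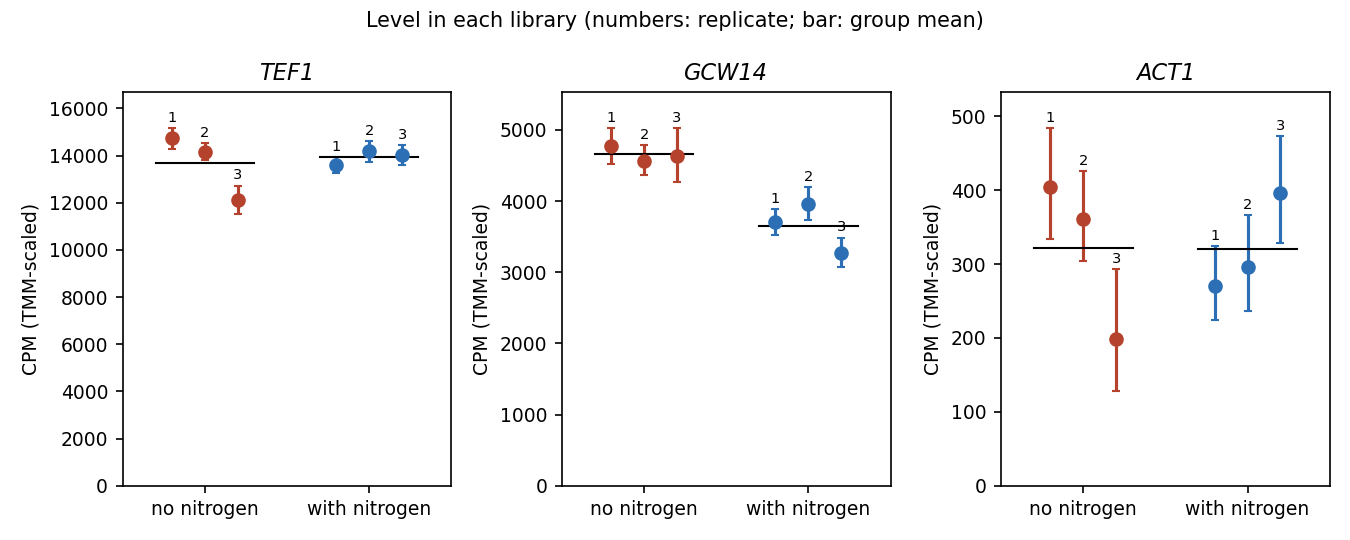
Level of each gene in CPM (vertical axes, from 0, with a scale of their own) in the 3 libraries without nitrogen and the 3 with nitrogen. Points are libraries numbered by replicate, with exact 95% intervals for counting error, and black bars are group means. GCW14 has its libraries without nitrogen at 4568 CPM or more and those with nitrogen at 3958 or less, while the groups overlap for TEF1 and ACT1.

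At an adjusted p under 0.05, 0 of the 3 genes were called by edgeR, against 6.34% of all tested genes, of which 3.66% were higher and 2.67% lower without nitrogen. At an unadjusted p under 0.05, 1 of the 3 (GCW14) and 547 of all tested genes were called; DESeq2 and limma-voom each called 1 of the 3, again GCW14, against 3.57% of all tested genes with DESeq2 and 6.25% with limma-voom. Groups did not overlap for 1 of the 3, GCW14, and for 20.2% of all tested genes (10.3% higher without nitrogen and 9.91% lower). The median log2 fold change was 0.09 over the 3 genes and 0.00 (-9.27e-05) over all tested genes. edgeR's fit gave 985.4 prior degrees of freedom, which means that the SE of a gene is set almost wholly by the common trend and hardly by how its own 3 libraries per group scatter.

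The spread over all 6 libraries, which includes any difference between the groups, separated the 3 genes. Over the 6 libraries the SD of log2 CPM was 0.098 for TEF1, 0.216 for GCW14 and 0.385 for ACT1, against a median of 0.341 over all tested genes. Counting error alone would give 0.0244 for TEF1, 0.0436 for GCW14 and 0.171 for ACT1. TEF1 had the smallest spread of the 3, and was number 47 of 3330 tested genes when these were put in order from the least variable. GCW14 was number 651 in that order and ACT1 number 1954. Among the 1713 tested genes with a mean of at least 100 CPM, where counting error matters less, TEF1 was number 45, GCW14 number 581 and ACT1 number 1388. The same set had a median SD of 0.257, below the value of ACT1. Counting error still falls with level within this set. Both orders therefore favour genes with many counts, such as TEF1, over genes with few, such as ACT1.

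Replicate 3 without nitrogen weighed on this order. Leaving it out was an alternative chosen after the data were seen. The SD of TEF1 was then 0.0418 over the other 5 libraries, number 4 of the 3330 tested genes, and that of ACT1 0.257, number 1253. For GCW14 the SD was then 0.222, number 933. The library left out held the lowest level of TEF1 and of ACT1, so the choice itself favours a smaller SD for these genes. The share of counts taken by TEF1 in that library was 1.20%, with an exact 95% interval from 1.14% to 1.26%, which lies below the intervals of the other 5 libraries. ACT1 held 0.0196% of its counts, with an interval from 0.0127% to 0.0290% that overlaps those of replicates 1 and 2 with nitrogen and of no other library. GCW14 was not low there: at 0.458%, its share lay beside those of replicates 1 and 2 without nitrogen, at 0.452% and 0.457%. Whether the low depth of this library had a part in its values was not tested.

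Within a group the order was not the same in both. Without nitrogen, the SD of log2 CPM was 0.150 for TEF1, 0.0317 for GCW14 and 0.537 for ACT1, and counting error alone would give 0.0456 for GCW14. The low value of GCW14 beside TEF1 rests on the shallow replicate 3: over the other 2 libraries the SD was 0.0404 for TEF1, 0.0443 for GCW14 and 0.115 for ACT1. With nitrogen, TEF1 had the smallest spread at 0.0314, and GCW14 had 0.138 and ACT1 0.287. An SD of 3 libraries is itself imprecise, and these differences in spread were not tested. The coefficient of variation of CPM over all 6 libraries was 6.56% for TEF1, 14.4% for GCW14 and 25.0% for ACT1.

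**Figure D2:**
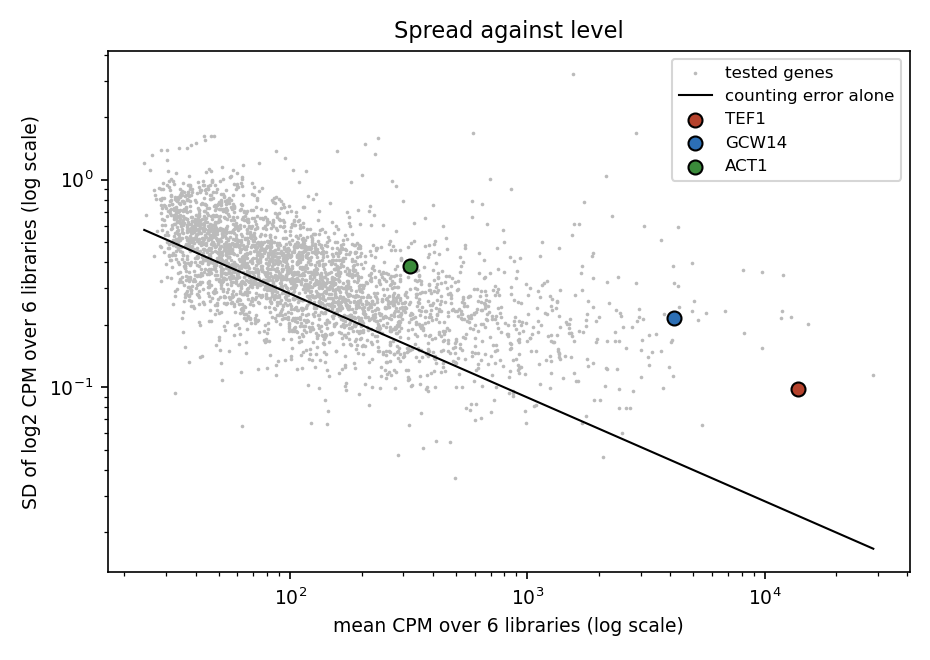
SD of log2 CPM over the 6 libraries against mean CPM, both on log axes, for each of 3330 tested genes (grey) and for TEF1, GCW14 and ACT1 (coloured). The black line is the spread that counting error alone would give. TEF1 lies at 0.098, GCW14 at 0.216 and ACT1 at 0.385.

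In each library without nitrogen the ratio of GCW14 to TEF1 lay above that of every library with nitrogen. Ratios of counts taken within a library do not depend on how libraries are scaled. Per count of TEF1, GCW14 had 0.324, 0.323 and 0.383 counts in replicates 1, 2 and 3 without nitrogen, and 0.273, 0.279 and 0.234 counts in replicates 1, 2 and 3 with nitrogen. No library of one group reached the range of the other, and replicate 3 was the outermost library on each side. The mean log2 ratio was -1.55 ± 0.142 without nitrogen and -1.94 ± 0.139 with nitrogen (SD, n = 3 each), a difference of 0.39, or 1.31-fold. Over the 9 pairs of a library without and a library with nitrogen the difference ran from 0.21 to 0.71, above 0 in 9 of 9. The pairs reuse the same 6 libraries, so that count restates that the groups do not overlap. In CPM, groups did not overlap for 20.2% of all tested genes. The ratio uses the same counts of GCW14 as its level, so it is no separate support. The exact permutation p was 0.1, two-sided, the smallest possible, and 0.3 after Benjamini-Hochberg adjustment over the 3 ratios. Counting error alone would give an SD of 0.0499 in this log2 ratio, and the SD over all 6 libraries was 0.247.

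The ratios to ACT1 did not separate the groups. TEF1 had 36.5, 39.2 and 60.9 counts per count of ACT1 in replicates 1, 2 and 3 without nitrogen, and 50.2, 47.8 and 35.4 in replicates 1, 2 and 3 with nitrogen. The groups overlapped, and the highest ratio came from the library with 25 counts of ACT1, where its exact 95% interval ran from 41.1 to 94.4. The mean log2 ratio was 5.47 ± 0.400 without nitrogen and 5.46 ± 0.274 with nitrogen (SD, n = 3 each; difference 0.01, exact permutation p = 1). Pairs of libraries differed by between -0.46 and 0.78.

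GCW14 had 11.8, 12.6 and 23.3 counts per count of ACT1 in replicates 1, 2 and 3 without nitrogen, against 13.7, 13.4 and 8.27 in replicates 1, 2 and 3 with nitrogen. The groups overlapped, with replicates 1 and 2 of each group close together and the replicates numbered 3 far apart. The mean log2 ratio was 3.92 ± 0.541 without nitrogen and 3.52 ± 0.410 with nitrogen (SD, n = 3 each), a difference of 0.40 (exact permutation p = 0.6; adjusted over the 3 ratios, p = 0.9). Without replicate 3 without nitrogen this difference was 0.09, and without replicate 3 with nitrogen it was 0.16. Over all 6 libraries the highest ratio was 2.82 times the lowest for GCW14 to ACT1, 1.72 times for TEF1 to ACT1 and 1.64 times for GCW14 to TEF1. Taken as the mean SD of a gene's log2 ratios to the other 2, the variation was 0.277 for TEF1, 0.365 for GCW14 and 0.394 for ACT1.

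**Figure D3:**
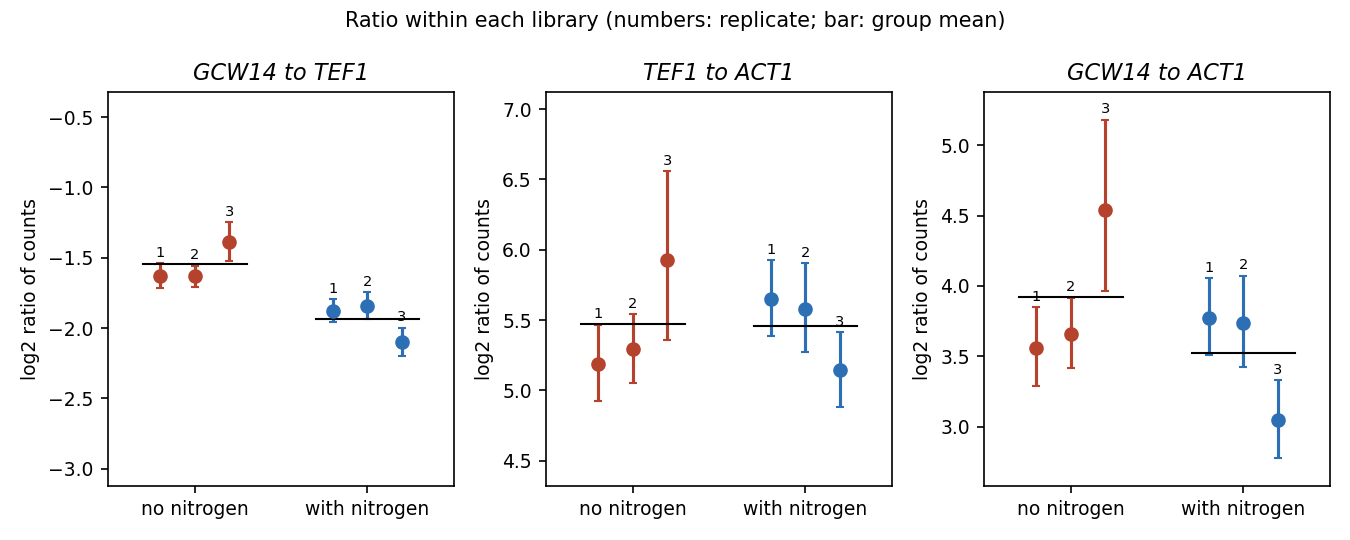
Log2 ratio of counts within each library for the 3 pairs of genes, with the libraries without nitrogen at the left and those with nitrogen at the right of each panel. The panels span equal ranges of log2, points are libraries numbered by replicate with exact 95% counting intervals, and black bars are group means. GCW14 to TEF1 separates the groups by 0.39 between means, while the ratios to ACT1 overlap and have wide counting intervals.

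Counts of different genes can be set side by side per kilobase of coding length. The 3' end method, however, reads about a single fragment per transcript whatever its length, so this scale favours short genes. On the scale of CPM per kilobase, TEF1 averaged 9904 ± 1001 without nitrogen and 10091 ± 218 with nitrogen, GCW14 averaged 11419 ± 252 without nitrogen and 8937 ± 845 with nitrogen, and ACT1 averaged 284 ± 95.7 without nitrogen and 284 ± 58.7 with nitrogen (SD, n = 3 each). On this scale GCW14 lay above TEF1 in each library without nitrogen, at 11693 against 10676, 11197 against 10262 and 11367 against 8773 in replicates 1, 2 and 3. With nitrogen it lay below TEF1 in each library, at 9079 against 9849, 9702 against 10273 and 8030.4 against 10151. ACT1 was lowest in every library on either scale. In plain CPM the order was TEF1, GCW14 and ACT1 in all 6 libraries, so which of TEF1 and GCW14 is the higher without nitrogen depends on the length scale. Only 3' end reads that touch the coding sequence were counted, and their part may differ between genes. Neither scale therefore ranks transcript levels between genes, and the size of this effect was not tested.

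Taking any of these genes as the standard for the whole table moved the calls. With TMM scaling 211 genes were called, 122 higher and 89 lower without nitrogen. Scaling each library by its count of TEF1 left 134 calls, 82 higher and 52 lower, 133 of them among the 211, and the median log2 fold change of all tested genes stayed at 0.00 (2.02e-06). By GCW14, 569 genes were called, 35 higher and 534 lower, with the median of all tested genes at -0.35, and 124 of these were among the 211. Values of the 3 genes under these scalings draw on the same counts as their ratios and are no separate support. They do not equal the differences in mean log2 ratio: ACT1 had -0.29 by GCW14, while GCW14 to ACT1 differed by 0.40. TEF1 had -0.39 ± 0.13 in log2 by GCW14 (SE; edgeR adjusted p = 0.0378), beside that median of -0.35, and GCW14 had 0.38 ± 0.12 by TEF1 (SE; edgeR adjusted p = 0.0480). ACT1 as the standard left 17 calls, 14 higher and 3 lower, all 17 among the 211. Under it the SE of GCW14 grew to 0.39, and its log2 fold change of 0.43 had an edgeR adjusted p = 1. The geometric mean of all 3 genes gave 106 calls, 39 higher and 67 lower, with a median of -0.14 over all tested genes. Of all calls, 57.8% were higher with TMM, 61.2% by TEF1, 6.15% by GCW14, 82.4% by ACT1 and 36.8% by all 3.

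**Figure D4:**
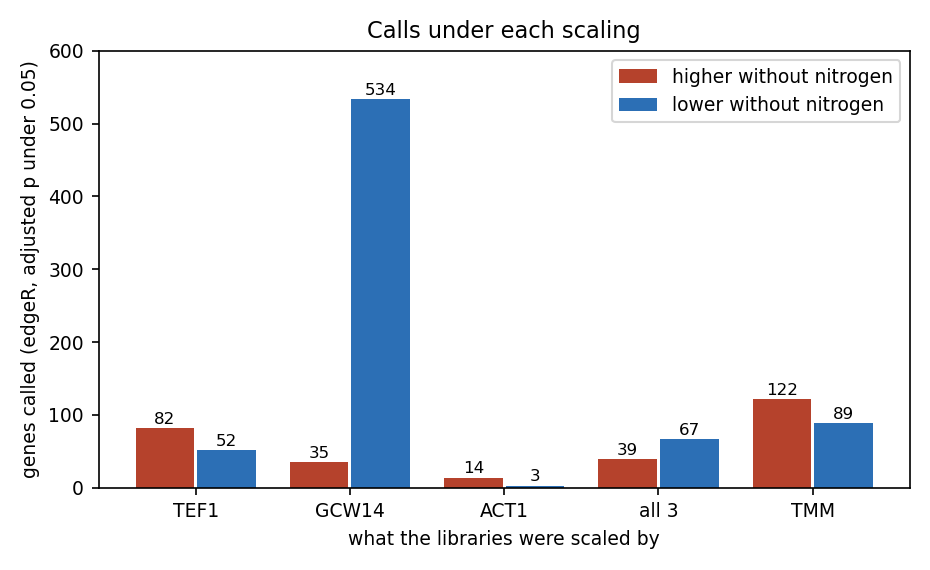
Number of genes called higher (red) and lower (blue) without nitrogen at an edgeR adjusted p under 0.05, with libraries scaled by the count of TEF1, GCW14 or ACT1, by the geometric mean of all 3, or by TMM. Scaling by GCW14 gives 35 higher and 534 lower genes, and scaling by ACT1 gives 14 and 3, against 122 and 89 with TMM.

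The genes most like each of the 3 were those with the smallest SD, over 6 libraries, of the log2 ratio to it within a library, among the other 1712 tested genes with a mean of at least 100 CPM. For TEF1 these were PAS_chr1-4_0510, PAS_chr2-1_0449 and PAS_chr2-2_0392, with SDs of 0.0457, 0.0665 and 0.0679, against a median of 0.277 over the candidates. PAS_chr1-4_0510 averaged 546 ± 39.0 CPM without nitrogen and 558 ± 26.7 CPM with nitrogen (SD, n = 3 each). PAS_chr2-1_0449 averaged 2559 ± 124 CPM without nitrogen and 2658 ± 174 CPM with nitrogen. The log2 fold changes of the 3 ran from -0.07 to -0.01, and the choice by likeness holds them near that of TEF1.

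For GCW14 the closest were PAS_chr2-2_0227, PAS_chr2-2_0148 and PAS_chr1-1_0419, with SDs of 0.0721, 0.0742 and 0.0763, against a median of 0.334. PAS_chr2-2_0148 averaged 931 ± 34.4 CPM without nitrogen and 730.0 ± 30.2 CPM with nitrogen (SD, n = 3 each). Its difference in log2 was 0.35 ± 0.13 (SE; edgeR adjusted p = 0.117). PAS_chr2-2_0227 had 0.39 and PAS_chr1-1_0419 had 0.42, values again held near that of GCW14 by the choice. For ACT1 the closest were PAS_chr1-4_0030, PAS_chr2-1_0666 and PAS_chr1-1_0303, with SDs of 0.111, 0.117 and 0.134, against a median of 0.460. In the order of likeness to TEF1, GCW14 was number 701 and ACT1 number 976, while TEF1 was number 384 in the order of likeness to GCW14 and number 135 in that to ACT1. The sources used here name no function for these 9 genes, and the likeness is a description over 6 libraries that share the groups and the shallow library.

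Beyond the coding end of TEF1, PAS_FragB_0053 averaged 264 ± 67.9 CPM without nitrogen and 282 ± 50.6 CPM with nitrogen. PAS_chr1-4_0585, which faces the coding end of GCW14, averaged 45.6 ± 11.8 CPM without nitrogen and 50.7 ± 11.2 CPM with nitrogen. ACT1 stands closest to its neighbour: PAS_chr3_0231 averaged 79.4 ± 27.7 CPM without nitrogen and 86.7 ± 0.824 CPM with nitrogen (SD, n = 3 each). None of these 3 passed between groups, with log2 fold changes of -0.05, -0.16 and -0.10. On the side of the coding start, PAS_FragB_0051, read away from TEF1 across 1114 bp, differed by 0.67 ± 0.34 in log2 (SE; edgeR adjusted p = 0.292), while PAS_chr1-4_0587 before GCW14 and PAS_chr3_1168 before ACT1 had 16 and 24 counts in all and were not tested. The strand setting of the authors' counting is not given in the sources used here, and whether reads of a neighbour entered these counts was not tested.

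A set of 8 other locus tags had been listed beside the 3 genes as further candidates for promoters or standards, and the sources used here name none of them. Of these 8, all tested, 2 rose, 2 fell and 4 did not pass, against 3.66% of all tested genes called higher and 2.67% called lower. Their log2 fold changes ran from -0.65 to 0.61 around a median of -0.02. The list was drawn up with earlier results of these data known, so its count supports nothing about such genes. PAS_chr3_0082 rose to 1087 ± 189 CPM without nitrogen, against 715 ± 34.3 CPM with nitrogen (SD, n = 3 each; log2 fold change 0.61 ± 0.13, SE; edgeR adjusted p = 2.95e-04). PAS_chr1-4_0292 also rose, by 0.49 ± 0.13 in log2 (SE; edgeR adjusted p = 0.00409). PAS_chr1-4_0130 fell to 3214 ± 409 CPM without nitrogen, against 5026 ± 372 CPM with nitrogen (log2 fold change -0.65 ± 0.12, SE, edgeR adjusted p = 7.03e-06). PAS_chr4_0821 was called lower, with -0.43 ± 0.12 (SE, edgeR adjusted p = 0.0139), though its groups overlapped. It averaged 10199 ± 2614 CPM without nitrogen and 13752 ± 1141 CPM with nitrogen (SD, n = 3 each). The call of PAS_chr4_0821 was lost in 5 of 15 alternatives: its log2 fold change was -0.43 with DESeq2 (adjusted p = 0.358), -0.46 with the replicate block (edgeR adjusted p = 0.104), -0.38 without replicate 2 without nitrogen, -0.28 without replicate 3 without nitrogen and -0.40 without replicate 2 with nitrogen. Without replicate 1 without nitrogen it was -0.65 and stayed called. PAS_chr1-4_0292 did not pass without replicate 1 of either group (0.40 without replicate 1 without nitrogen and 0.36 without replicate 1 with nitrogen), nor PAS_chr3_0082 without replicate 1 without nitrogen (0.44). TEF1, at -0.03, and ACT1, at 0.09, each had a smaller log2 fold change in size than any of the 8. Among all 3330 tested genes, put in order from the smallest size, TEF1 was number 171, ACT1 number 683 and GCW14 number 2224.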

How the data were processed

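The authors deposited raw read counts per gene for 6 libraries of strain X-33, in 1 table without normalization. Per the labels' protocols, 300 ng of RNA went into each QuantSeq library, which reads transcript 3' ends. Per the submitters' processing notes, the tools were Trimmomatic, HISAT2 and featureCounts with versions and settings not given in the sources used here. All 5040 locus tags matched RefSeq assembly ASM2700v1 in name and position.

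Counts were analysed with edgeR 4.0.16 (R 4.3.3), limma 3.58.1 and DESeq2 1.42.0. filterByExpr (minimum count 10) kept 3330 genes; these were TMM-scaled and tested by quasi-likelihood, two-sided, at a threshold of 0.05 after Benjamini-Hochberg adjustment over all of them. The SE is the size of the fold change divided by the square root of F. Log2 CPM used a prior count of 0.5. Ratios and shares were compared by exact permutation (scipy 1.17.1); counting intervals are Clopper-Pearson, and cover counting error only. The test was run on counts simulated from edgeR's own fit, which cannot show whether the SE of a single gene is too narrow. That check set no bar for recovering a change as small as that of GCW14. Alternatives were scaling, filter, tool, replicate block and leaving out each library. The genes named are the 3 members, the 3 most alike to each, their chromosome neighbours and the 8 listed tags. Members and lists were chosen with earlier results of these data known.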

Additional observations from a re-analysis of the deposited data

How the results depend on the processing

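Of 15 alternatives each, the scalings by TEF1, GCW14 or ACT1 left aside, TEF1 kept its direction and side of the threshold in 14, GCW14 in 10 and ACT1 in 13. GCW14, at 0.35 in the analysis reported, passed with library totals as scaling (0.35), DESeq2 (0.35), limma-voom (0.36), the stricter filter (0.36) and, chosen after the data were seen, edgeR's robust setting (0.35). Scalings by one of the 3 genes draw on the same counts as the ratios between them and are no separate support. Under them GCW14 had 0.38 scaled by TEF1, TEF1 had -0.39 scaled by GCW14 and 0.032 scaled by ACT1, and ACT1 had -0.29 scaled by GCW14. With a library left out, the log2 fold change of TEF1 ran from -0.090 to 0.054 (above 0 only without replicate 3 without nitrogen), that of GCW14 from 0.28 to 0.40 (edgeR adjusted p from 0.0829 to 0.238) and that of ACT1 from -0.073 to 0.26. The causes of the other differences were not tested. Over replicates 1 and 2 without nitrogen alone, an alternative chosen after the data were seen, the SD of log2 CPM was 0.0404 for TEF1 and 0.0443 for GCW14.

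The 211 calls became 134 scaled by TEF1, 569 by GCW14, 17 by ACT1, 106 by all 3 genes and 119 with DESeq2, and 129 to 183 with a library left out; without replicate 1 without nitrogen 132 were called, without replicate 2 without nitrogen 129, and without replicate 2 with nitrogen 132. With the replicate block 168 were called, and the log2 fold changes were -0.03 for TEF1, 0.36 for GCW14 (edgeR adjusted p = 0.198) and 0.08 for ACT1; the block changed no call of the 3 genes. Deviations of same-numbered libraries correlated at -0.0694, -0.0315 and -0.0600, and each library without nitrogen correlated best with a library of another number. No pairing by number was seen. With 3 libraries per group and few counts per gene, these values cannot exclude one. Differences in ratios and shares moved by less than the spread between replicates under all 8 alternatives each. For the 6 that leave out a library, this must hold with 3 libraries per group, so it says nothing about firmness. Under them GCW14 to TEF1 ran from 0.31 to 0.44. TEF1 to ACT1 ran from -0.22 to 0.15 and GCW14 to ACT1 from 0.09 to 0.58. The sign turned too for the shares of TEF1 and ACT1, not of GCW14. Of 312 values of 21 other named genes, taken without the scalings by TEF1, GCW14 or ACT1, 293 kept direction and side of the threshold, 8 lost the call and 11 turned sign. The sign turned only with a library left out, and only for genes that were not called: PAS_chr1-4_0510 ran from -0.048 to 0.029, PAS_chr2-2_0392 from -0.126 to 0.0036, PAS_chr2-1_0666 from -0.076 to 0.274, PAS_chr1-1_0303 from -0.045 to 0.288, PAS_FragB_0053 from -0.296 to 0.076, PAS_chr1-4_0585 from -0.418 to 0.024 and PAS_chr3_0231 from -0.456 to 0.116. Depth limits ACT1 most, with 25 to 143 counts per library.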
